A study of Mus musculus with 2 samples.

Results

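The genes described are the 5 ligands of the vascular endothelial growth factor (VEGF) family, Vegfa, Vegfb, Vegfc, Figf (VEGF-D) and Pgf (placental growth factor), their 3 receptor tyrosine kinases, Flt1 (VEGF receptor 1), Kdr (VEGF receptor 2) and Flt4 (VEGF receptor 3), and the neuropilin coreceptors Nrp1 and Nrp2. They were taken by gene symbol from a digital gene expression (DGE) table of mouse uterus, and all 10 were among its 14678 genes. DGE counts short sequence tags of mRNA and assigns each tag to 1 gene, and the tags found for a gene make up its copy number. Both groups were littermate VEGFtetO/tetO females that also carried the beta-AK tg/wt transgene, in which the beta-actin promoter drives the tetR-Krab repressor in all tissues, and tet operators had been placed in the promoter region of their VEGF gene. The Dox+ females ate chow with doxycycline, which releases tetR-Krab from the promoter, and were the VEGF-normal group. The Dox− females were taken off doxycycline at 3 to 4 weeks of age and were the VEGF-repression group. All were analysed at 9 to 10 weeks and had been mated with VEGFtetO/tetO males. Total RNA of 3 uteri at gestation day 2.5 (G2.5) was pooled for each group, and 1 library was made from each pool, so a difference between the groups has no replicate check. Because repression is not limited to the uterus, effects that arose in other organs are part of the comparison, and doxycycline itself cannot be told apart from the VEGF level.

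VEGF ligands are secreted dimers that bind receptor tyrosine kinases found mainly on endothelial cells. VEGF-A acts through KDR, the main signalling receptor of blood vessel endothelium, while FLT1 binds VEGF-A, VEGF-B and PlGF tightly with weaker kinase activity and can act as a decoy. VEGF-C and VEGF-D act through FLT4, best known for lymphatic vessels, and VEGF-C after processing also through KDR. Neuropilins bind VEGF isoforms together with the kinase receptors, and they also bind class 3 semaphorins together with plexins. In the uterus VEGF-A is known for the rise in vascular permeability and vessel growth around implantation.

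The promoter of Vegfa is shown because it is the gene whose promoter the design targets, and that of Vegfc because Vegfc had the lowest ratio between the libraries among the 10 genes. Both are the 250 bases before the transcription start of the RefSeq entry (GRCm38.p6), which match the NCBIM37 genome exactly once, at chr17:46169327-46169576 on the minus strand for Vegfa and at chr8:55162636-55162885 on the plus strand for Vegfc. They are reference sequence without the inserted operators, whose position is not given in the sources used here. Capitals mark the GC box, GGGCGG on either strand.
Vegfa promoter: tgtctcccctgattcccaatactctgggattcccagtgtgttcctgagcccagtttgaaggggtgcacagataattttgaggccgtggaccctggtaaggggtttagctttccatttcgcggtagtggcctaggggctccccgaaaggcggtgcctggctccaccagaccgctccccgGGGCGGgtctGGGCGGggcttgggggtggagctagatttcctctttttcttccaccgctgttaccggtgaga
Vegfc promoter: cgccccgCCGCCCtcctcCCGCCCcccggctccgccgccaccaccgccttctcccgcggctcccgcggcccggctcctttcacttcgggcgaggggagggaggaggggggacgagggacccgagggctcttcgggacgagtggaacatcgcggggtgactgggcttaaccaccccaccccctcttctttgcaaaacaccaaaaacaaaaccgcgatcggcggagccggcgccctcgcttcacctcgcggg
Each of the pair holds 2 GC boxes, and their GC content is 59.2% for Vegfa and 71.6% for Vegfc, against a median of 52.4% over 32851 mouse promoters of the same length. A GC box was found in 9 of the 10 genes, Figf being the exception, and in 32.7% of all promoters. The core of the hypoxia response element, ACGTG on either strand, was found in 0 of 10 in this window and in 16.6% of all promoters, and a TATA box (TATAAA) was found in Figf and Flt1, 2 of 10, against 12.4%. Each of the 10 genes was read at its upstream-most start only, whereas the percentages are over all promoter entries. A gene can have more than 1 entry, so the sets are unlike. By the gene coordinates given below, the window of Flt4 lies inside the gene, and those of Figf, Nrp2 and Kdr overlap theirs. The matches describe the letters alone. No measurement of binding or methylation was analysed here.

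Vegfa, the repressed gene (Entrez Gene 22339, chromosome 17, 46153942 to 46169326, minus strand, NCBIM37), was counted with 247 tags in Dox+ and 125 in Dox−. These are 41.26 and 21.39 TPM, a unit that scales the tags of a gene to 1000000 clean tags of its library and makes no correction for length. The Dox− level was 1.93-fold lower, with a 95% interval of 1.55 to 2.41, and the direction is that of the labels. The interval is the exact Clopper-Pearson interval of how the tags of a gene divide between the libraries, covers counting error only, and does not include the spread between mice. In bulk uterus, fewer cells that express a gene and less RNA per cell cannot be told apart.

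A gene was called when its combined copy number was at least 200 and its log2 ratio of Dox− to Dox+ was past 0.5 in either direction, which is a rule of size and not a test. Of the 10 genes, 3 reached 200 combined tags (Vegfa, Vegfb and Nrp1), and 1 of them, Vegfa, was called, as lower. Among all 6547 genes with at least 200 combined tags, 36.6% were called, 18.8% as higher and 17.8% as lower in Dox−, so a call by this rule is common in the table. At 100 combined tags 6 of the 10 could be compared and 3 were past the fold, Vegfa, Vegfc and Figf, all lower, against 39.0% of 8856 genes, 20.1% as higher and 18.9% as lower. With no filter on combined tags Kdr was also past it, as higher, which made 4 of 10. Over the 13727 genes with more than 3 tags in at least 1 library the share was 47.5%, 24.0% as higher and 23.5% as lower. The 95% interval of the ratio left out 1 for 4 of the 10 genes, Vegfa, Vegfc and Figf below 1 and Nrp1 above 1. The same held for 47.6% of all 14678 genes, 23.0% below 1 and 24.6% above 1.

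**Figure D1:**
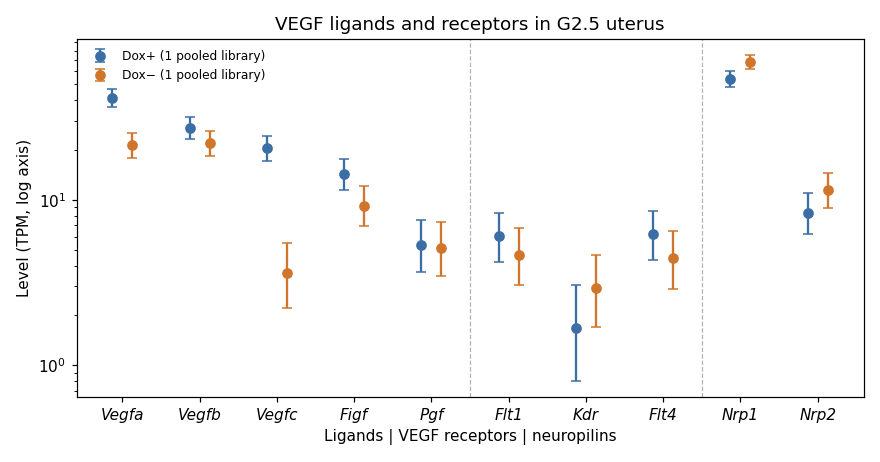
Level of each gene in TPM (log axis) in Dox+ (blue) and Dox− (orange), 1 pooled library each, with exact 95% Poisson intervals of the tag count. Vegfa and Vegfc stand at 41.26 and 20.55 TPM for Dox+, against 21.39 and 3.59 TPM for Dox−, while Nrp1 is at 54.13 and 68.1 TPM.

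The 5 ligands all had fewer tags per clean tag in Dox−, 3 of them with an interval that left out 1. Vegfc, the lymphangiogenic ligand of FLT4 (Entrez Gene 22341, chromosome 8, 55162886 to 55271808, plus strand), had 123 tags in Dox+ and 21 in Dox−, or 20.55 and 3.59 TPM. Its Dox− level was 5.72-fold lower (95% interval 3.58 to 9.57), but its 144 combined tags lie under the filter of 200. Figf, the other ligand of FLT4 (Entrez Gene 14205, chromosome X, 160811310 to 160840582, plus strand), had 86 and 54 tags, or 14.37 and 9.24 TPM, and was 1.55-fold lower (1.09 to 2.23).

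Both ligands specific for FLT1 had intervals that hold 1. Vegfb (Entrez Gene 22340, chromosome 19, 7056963 to 7062141, minus strand), known for roles in lipid uptake and cell survival, had 163 tags in Dox+ and 129 in Dox−, or 27.23 and 22.07 TPM. Its ratio of Dox− to Dox+ was 0.811 (0.638 to 1.03). Pgf (Entrez Gene 18654, chromosome 12, 86507589 to 86518246, minus strand) had 32 and 30 tags, or 5.35 and 5.13 TPM, and a ratio of 0.960 (0.564 to 1.63). At this depth a difference of Pgf up to the bounds of that interval in either direction was not detectable.

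The 3 receptors were counted with few tags, and no difference was detectable for any of them. Flt1 (Entrez Gene 14254, chromosome 5, 148373180 to 148537587, minus strand) had 36 tags in Dox+ and 27 in Dox−, or 6.01 and 4.62 TPM, with a ratio of 0.768 (0.449 to 1.30). Flt4 (Entrez Gene 14257, chromosome 11, 49422765 to 49466241, plus strand) had 37 and 26 tags, or 6.18 and 4.45 TPM, with a ratio of 0.720 (0.418 to 1.22). Kdr (Entrez Gene 16542, chromosome 5, 76328852 to 76374483, minus strand) had 10 and 17 tags, or 1.67 and 2.91 TPM, with a ratio of 1.74 (0.753 to 4.26). Kdr was the only receptor of the 3 with more tags in Dox−, but its ratio relative to that of Flt1, 2.27 (0.819 to 6.44), and to that of Flt4, 2.42 (0.873 to 6.88), both had intervals that hold 1.

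The neuropilins had the opposite direction to the ligands. Nrp1, the coreceptor of VEGF-A isoforms and of semaphorin 3A (Entrez Gene 18186, chromosome 8, 130882973 to 131029362, plus strand), had 324 tags in Dox+ and 398 in Dox−, or 54.13 and 68.1 TPM. Its Dox− level was 1.26-fold higher (1.08 to 1.46), under the fold of the size rule. Nrp2, which binds VEGF-C and class 3 semaphorins (Entrez Gene 18187, chromosome 1, 62749859 to 62865269, plus strand), had 50 and 67 tags, or 8.35 and 11.46 TPM, and its ratio of 1.37 (0.937 to 2.02) has an interval that holds 1. The ratio of Nrp2 relative to that of Nrp1 was 1.09 (0.722 to 1.66), so the pair was not told apart.

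**Figure D2:**
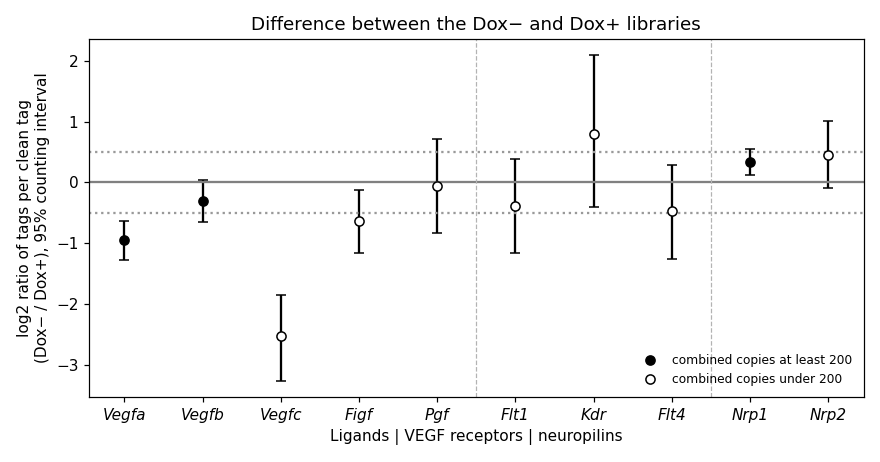
The log2 ratio of tags per clean tag, Dox− over Dox+, with exact 95% counting intervals, where filled points have at least 200 combined tags and dotted lines stand at log2 ratios of −0.5 and 0.5. The 5 ligands lie below 0, Vegfc lowest at −2.52, and the intervals of the 3 receptors cross 0.

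Set against Vegfa, 6 of the 9 other genes had a ratio that differed from that of Vegfa beyond counting error. The share of all genes that differ from Vegfa in this way was not computed. The median log2 ratio over all genes with at least 200 tags was 0.03, against −0.95 for Vegfa, so the count is no result about the family. Vegfc was lower still, at 0.337 times the ratio of Vegfa (95% interval 0.192 to 0.571). Vegfb at 1.56 times (1.13 to 2.17), Pgf at 1.85 (1.03 to 3.30), Kdr at 3.36 (1.40 to 8.44), Nrp1 at 2.43 (1.86 to 3.18) and Nrp2 at 2.65 (1.69 to 4.15) were all less reduced than Vegfa or higher. The intervals of Figf, Flt1 and Flt4 hold 1, so these were not told apart from Vegfa. The 9 intervals were not corrected for their number and share the counts of Vegfa.

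Summed over genes, the ligands had 651 tags in Dox+ and 359 in Dox−, a 1.77-fold lower sum (1.55 to 2.02). The receptors had 83 and 70 tags, a ratio of 0.864 (0.619 to 1.20), and the neuropilins 374 and 465, a ratio of 1.27 (1.11 to 1.46). Per receptor tag there were 7.84 ligand tags (6.23 to 9.98) in Dox+ and 5.13 (3.96 to 6.72) in Dox−, while neuropilin tags per receptor tag numbered 4.51 (3.54 to 5.79) and 6.64 (5.16 to 8.67). These are ratios of tags, not of protein or binding sites. Both pairs of intervals overlap, but overlap of separate intervals does not show that the libraries were alike. The difference in these ratios between the libraries was not tested.

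Within the ligands, Vegfa held 37.9% of tags (34.2 to 41.8) in Dox+ and 34.8% (29.9 to 40.0) in Dox−, and these intervals overlap. The share of Vegfc was 18.9% (15.96 to 22.1) in Dox+ and 5.85% (3.66 to 8.80) in Dox−, and that of Vegfb was 25.0% (21.8 to 28.6) and 35.9% (31.0 to 41.1). For both genes the intervals of the libraries do not overlap. A share depends on the other ligands too. Vegfb itself had 163 tags in Dox+ and 129 in Dox−, so its larger share was not a rise in its tags. Figf made up 13.2% and 15.04% and Pgf 4.92% and 8.36%, with overlapping intervals. Here too, overlap of separate intervals does not show that a share was the same in both libraries. Among receptor tags Kdr held 12.0% (5.93 to 21.0) in Dox+ and 24.3% (14.8 to 36.0) in Dox−, and Nrp1 held 86.6% and 85.6% of the neuropilin tags.

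**Figure D3:**
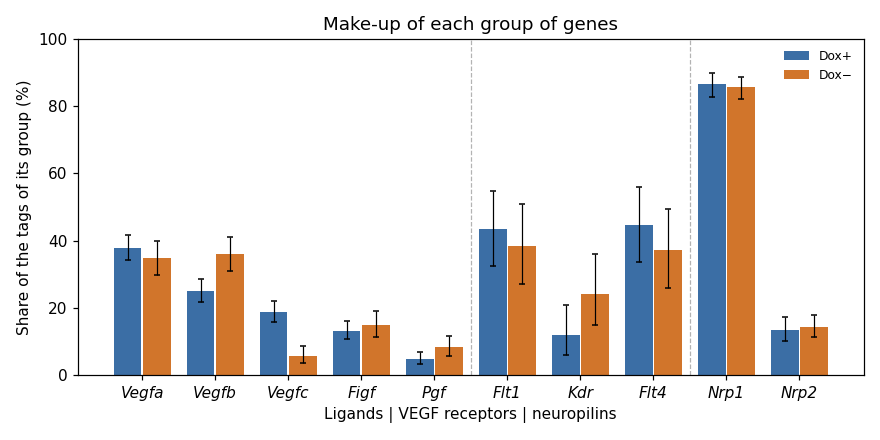
Share of each gene in the tags of its group (ligands, VEGF receptors, neuropilins), in percent, for Dox+ (blue) and Dox− (orange), with exact 95% binomial intervals. The share of Vegfc is 18.9% in Dox+ and 5.85% in Dox−, and that of Vegfb 25.0% and 35.9%, although Vegfb had 163 and 129 tags.

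To compare levels between genes, TPM was divided by the length of the longest GENCODE protein-coding transcript. In Dox+ the order of TPM per kb was Vegfb (21.3), Vegfa (11.7), Vegfc (10.9), Nrp1 (9.16), Figf (7.01), Pgf (3.38), Nrp2 (1.24), Flt4 (0.988), Flt1 (0.872) and Kdr (0.282). Neighbours that were not told apart were Vegfa and Vegfc, Vegfc and Nrp1, Nrp2 and Flt4, and Flt4 and Flt1, and the other 5 of 9 pairs differed beyond counting error. On this scale the 5 ligands stood above the 3 receptors, and Kdr was lowest.

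In Dox− the order of TPM per kb was Vegfb (17.2), Nrp1 (11.5), Vegfa (6.06), Figf (4.51), Pgf (3.24), Vegfc (1.91), Nrp2 (1.71), Flt4 (0.711), Flt1 (0.670) and Kdr (0.491), with 3 of 9 neighbouring pairs told apart (Vegfb from Nrp1, Nrp1 from Vegfa, and Nrp2 from Flt4). Vegfc went from the third to the sixth place, and Nrp1 from the fourth to the second. If a transcript gives tags from 1 site only, tags do not scale with length. On plain TPM Nrp1 was the highest of the 10 in both libraries, followed by Vegfa in Dox+ and by Vegfb and Vegfa, which were not told apart, in Dox−. Pgf (5.35 TPM) lay below Flt4 (6.18) and Flt1 (6.01) in Dox+, and Vegfc (3.59) lay below Flt1 (4.62) and Flt4 (4.45) in Dox−, so the order of ligands above receptors held only per kb. Kdr was the lowest on either scale.

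The 3 receptors also had few tags per kb beside other genes of endothelial cells. How many tags a transcript of each gene yields is not known here, so few tags need not mean little mRNA. Of 18 endothelial markers 17 were in the table, and all 17 had more TPM per kb than each of Flt1, Kdr and Flt4 in both libraries. The lowest marker, the angiopoietin receptor Tek, stood at 3.12 TPM per kb in Dox+ and 1.88 in Dox−, against 0.282 and 0.491 for Kdr. The median marker stood at 8.33 and 6.01 TPM per kb.

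**Figure D4:**
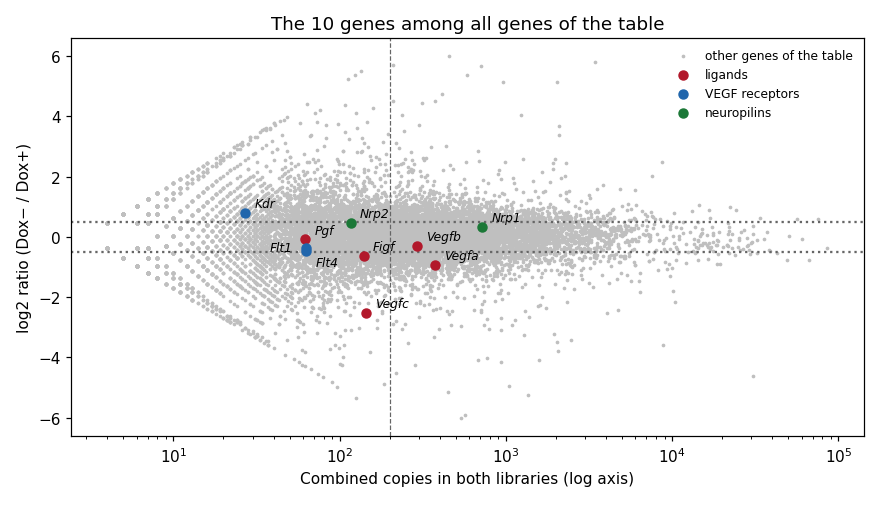
The log2 ratio of Dox− to Dox+ against the combined copy number (log axis) for the genes of the table (grey) and the 10 genes (coloured by group), with lines at 200 combined copies and at log2 ratios of −0.5 and 0.5. Vegfa, at 372 combined tags and a log2 ratio of −0.95, is the one coloured point past both lines, and Vegfc, at −2.52, lies left of 200 tags.

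The genes nearest to Vegfa in the log2 TPM of both libraries were Cpsf7 (250 and 124 tags in Dox+ and Dox−), Smpd2 (246 and 123), Mtss1l (242 and 127), Syt11 (250 and 128) and Reck (240 and 124). With 1 library per group, likeness rests on 2 values per gene.

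Downstream of the receptors, VEGF signalling runs through phospholipase C, kinase cascades and small GTPases to the cytoskeleton. Of 55 listed signal transduction genes 54 were in the table and 35 had at least 200 combined tags, of which 9 were higher and 4 lower in Dox−, with a median log2 ratio of 0.10 against 0.03 over all genes with at least 200. These calls are about as frequent as the 36.6% over all genes, and the genes named below are examples and no result about the list. The kinase genes Akt2 (194 and 404 tags in Dox+ and Dox−, 2.13-fold higher) and Rock1 (111 and 262, 2.42-fold higher) and the GTPase gene Rac1 (1704 and 2412, 1.45-fold higher) were among the higher ones. The small heat shock protein gene Hspb1 (2083 and 772 tags, 2.63-fold lower) and Pla2g4a, which encodes a phospholipase that releases arachidonic acid (393 and 196, 1.96-fold lower), were among the lower ones. Akt1, with the most tags of the list, had 2541 and 2654.

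Of 15 genes that VEGF is known to induce in endothelial cells, 13 had tags here and 0 reached 200 combined tags. At 100 combined tags 7 could be compared, 2 higher and 3 lower, against the 39.0% of all genes at that filter given above. Kcne3, which encodes a potassium channel subunit found in tip cells, had 100 tags in Dox+ and 43 in Dox−, 2.27-fold lower (1.57 to 3.33). Rcan1, a calcineurin inhibitor gene, had 105 and 92 tags, with a ratio of 0.897 (0.671 to 1.20). The genes of this list did not share 1 direction.

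Hypoxia is a main inducer of Vegfa, through hypoxia-inducible factors that prolyl hydroxylases and VHL hold down. Of 10 regulators 8 reached 200 tags, with 2 higher (Egln3 and Arnt) and 1 lower (Vhl), close to the 36.6% of genes called over the whole table. The prolyl hydroxylase gene Egln3, itself a hypoxia-inducible gene, had 35 tags in Dox+ and 179 in Dox−, 5.24-fold higher (3.63 to 7.76). Hif1a had 987 and 1075 tags, Egln1 904 and 802, Arnt 293 and 422 (1.48-fold higher), and Vhl 157 and 91 (1.68-fold lower). Of 18 other hypoxia targets, 11 reached 200 tags, 3 of them higher and 1 lower, again close to 36.6%, with a median log2 ratio of 0.22. Those higher were glycolytic enzyme genes, Ldha (5899 and 10707 tags, 1.86-fold), Pgk1 (2711 and 4307, 1.63-fold) and Hk2 (139 and 218, 1.61-fold), and the lower one was the glycolytic regulator Pfkfb3 (570 and 233 tags, 2.39-fold).

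Genes whose products bind VEGF or restrain its signal were called in both directions. Of 15 listed genes 6 reached 200 tags, 3 of them higher and 2 lower. Over all genes with at least 200 tags, 18.8% were called as higher and 17.8% as lower. Thbs1, which encodes the angiogenesis inhibitor thrombospondin 1, had 608 tags in Dox+ and 241 in Dox− (2.46-fold lower), and Col18a1, the source of endostatin, had 1635 and 821 (1.94-fold lower). The protease gene Adamts1 had 587 and 975 tags (1.70-fold higher), and the Sprouty genes Spry1 (76 and 127, 1.71-fold higher) and Spry2 (124 and 186, 1.54-fold higher), antagonists of receptor tyrosine kinase signalling, were also higher. Sparc, whose product binds VEGF-A, had 25262 and 25092 tags.

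The other partners of the neuropilins, class 3 semaphorins and plexins, were listed with 13 genes, of which 6 reached 200 tags, 3 higher and 1 lower. Over all genes with at least 200 tags, 36.6% were called, 18.8% as higher and 17.8% as lower. Sema3a, the gene of the ligand that binds NRP1, had 48 tags in Dox+ and 209 in Dox−, 4.46-fold higher (3.25 to 6.24). Sema3f, a ligand gene for NRP2, had 127 and 204 tags (1.65-fold higher), Plxna1 126 and 175 (1.42-fold higher) and Plxnd1, an endothelial plexin gene, 239 and 151 (1.55-fold lower). Sema3c had 758 and 875 tags, and Gipc1, an adaptor gene of NRP1, 237 and 317. Of 6 genes of the related PDGF branch, 4 reached 200 tags and 0 were past the fold, against the same 36.6%. Pdgfc had 408 and 322 tags and Pdgfra 394 and 286.

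Markers of the vessel wall were read beside the ligands. Of 17 endothelial markers in the table, 10 reached 200 tags, 0 of them higher and 5 lower. Over all genes with at least 200 tags, 18.8% were called as higher and 17.8% as lower. The markers that reached 200 tags had a median log2 ratio of −0.56. The summed level of all 17 was 867 TPM in Dox+ against 542 TPM in Dox−, with none at 0. Sox17 alone made up 333 and 100.1 TPM of these sums, which were 534 and 442 TPM without it. Of the sums without Sox17, Cd34 made up 144 and 166 TPM, higher in Dox−. The lower ones were Cdh5 (446 and 216 tags in Dox+ and Dox−, 2.02-fold), Tie1 (191 and 100, 1.86-fold), Egfl7 (255 and 140, 1.78-fold), Cldn5 (152 and 90, 1.65-fold) and Sox17 (1991 and 585, 3.32-fold), of which Sox17 is also expressed in uterine epithelium. Cd34 had 864 and 970 tags, 1.15-fold higher (1.05 to 1.26), and Pecam1, a defining marker named after its values were seen, 243 and 253. In all, 13 of the 17 had ratios below 1 and 4 above it. Intervals lay below 1 for 9, above it for 1 and held it for 7. Over all genes 23.0% had intervals below 1 and 24.6% above it.

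Lymphatic markers, which matter for Vegfc, Figf and Flt4, had a summed level of 53.0 TPM in Dox+ against 27.5 in Dox−. Of the 5 that were present, 0 reached 200 tags and all 5 had ratios below 1. The intervals of 3 lay below 1 and those of 2 held it, against 23.0% of all genes with intervals below 1. Pdpn had 114 and 55 tags (2.02-fold lower), Mmrn1 94 and 44 (2.09-fold lower), and Prox1, the defining transcription factor gene, 4 in Dox+ and 0 in Dox−. Of 6 pericyte markers 4 reached 200 tags and all 4 were lower, against 17.8% as lower over all genes with at least 200 tags. The pericyte markers had sums of 918 and 521 TPM, among them Cspg4 (240 and 89 tags), Kcnj8 (214 and 114), Rgs5 (196 and 130) and Des (4647 and 2578). Des, which is also a muscle gene and stands in the smooth muscle list too, made up 776 and 441 TPM of the pericyte sums, which were 142.0 and 79.9 TPM without it. Of 7 smooth muscle markers, all 7 reached 200 tags and 6 were lower, against the same 17.8% over all genes. Their sums were 6498 and 4483 TPM, and Tagln (11417 and 8854) was the one within the fold. With the sum of counted tags as library size 4 in place of 6 were past the fold. Besides Des, the lower ones included Smtn (1698 and 877), Cnn1 (4866 and 2851), Acta2 (4225 and 2786) and, close to the threshold, Actg2 (7436 and 5086). The part of these markers in the ratios of the VEGF genes was not tested.

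Markers of the other cell types did not share that direction. Their counts stand beside 18.8% called as higher and 17.8% as lower over all genes with at least 200 tags. Of 8 epithelial markers 3 were higher (Elf3, 185 and 1083 tags, Krt7, 179 and 600, and Epcam, 467 and 821) and 1 was lower (Cldn4, 149 and 65), with sums of 876 and 1345 TPM, Krt19 at 1554 and 2046 tags and Krt8 at 1330 and 1481. Of 7 stromal markers 2 were higher (Lum, 1549 and 2779, and Col1a1, 23017 and 33696) and 1 was lower (Vim, 2612 and 1680), with sums of 8011 and 9865 TPM and Col3a1 at 18514 and 17098 tags. Of 9 leukocyte markers 2 reached 200 tags and 0 were past the fold, with sums of 84.0 and 123 TPM, Csf1r at 186 and 181 tags and Lyz2 at 127 and 169 (ratio 1.36, 1.08 to 1.73). The intervals of 5 of the 9 leukocyte markers lay above 1 and of 0 below it, against 24.6% and 23.0% of all genes. Among the 5 was Ptprc (49 and 130 tags, ratio 2.72, 1.94 to 3.86), which was chosen after its values were seen. The 4 haemoglobin and erythroid genes in the table summed to 11.03 and 35.6 TPM, with 1 of them at 0 in Dox+, and were mostly Hba-a1 (26 and 114 tags) and Hba-a2 (19 and 82), near-identical genes whose tags are hard to separate. Alas2, of the same list, went the other way with 21 and 9 tags, a ratio of 0.439 (0.177 to 0.9998), so the list did not share 1 direction. The labelled tissue was checked with Hoxa10 (3120 and 1060 tags) and Hoxa11 (2573 and 785), uterine developmental regulators that were well counted in both libraries, although of 8 uterine genes with at least 200 tags 5 were lower and 3 higher in Dox−, Hand2 (985 and 143) lowest, with Msx1 (1757 and 727) and Wt1 (325 and 157) also lower, and Ltf (905 and 2639) among the higher. The part of these genes in the ratios of the VEGF genes was likewise not tested.

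**Figure D5:**
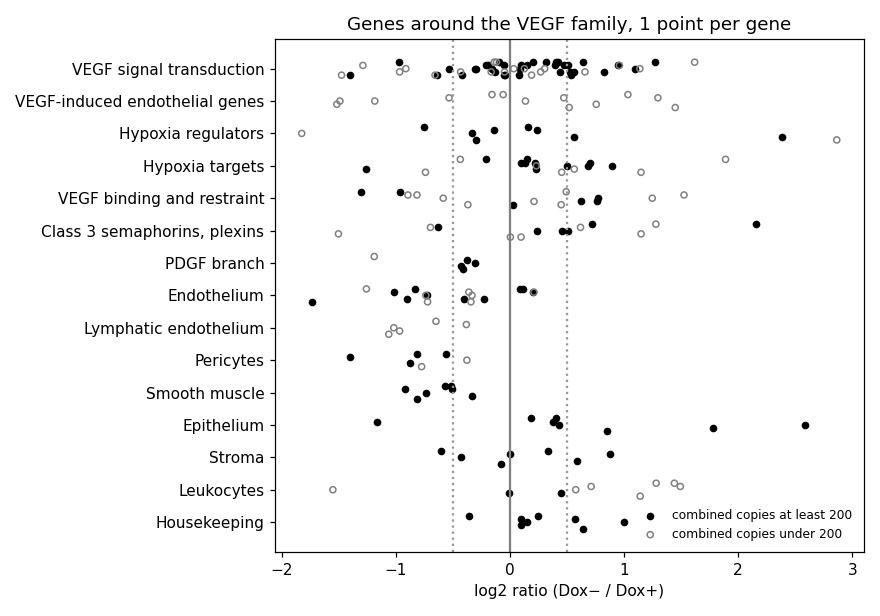
The log2 ratio of Dox− to Dox+ for each gene (1 point) of the lists around the VEGF family and of cell type markers, where filled points have at least 200 combined tags and dotted lines stand at log2 ratios of −0.5 and 0.5. The filled pericyte and smooth muscle points lie below 0, and the endothelial points reach from −1.73 to 0.20 among those filled.

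The scale of the comparison was read from genes often used as references. Of 8 housekeeping genes with at least 200 tags, 3 were higher (Tbp, 96 and 188 tags, Hprt, 376 and 544, and B2m, 6681 and 10158) and 0 lower. Over all genes with at least 200 tags, 36.6% were called, 18.8% as higher and 17.8% as lower. The log2 ratios of the 8 ran from −0.36 to 1.004 with a median of 0.20, and Ppia had 7255 and 7573 tags. The log2 ratios of Vegfc (−2.52) and Vegfa (−0.95) lie below that range with their whole intervals. Figf (−0.64) lies below it with an interval that reaches into it, up to −0.13. Kdr (0.80), Nrp2 (0.46), Nrp1 (0.33), Pgf (−0.06) and Vegfb (−0.30) lie inside it. Flt1 (−0.38) and Flt4 (−0.47) lie just below it with intervals that reach above 0. The libraries held 5985925 clean tags in Dox+ and 5844314 in Dox−, of which 74.1% and 72.2% were assigned to genes of the table, and the 10 VEGF genes together took 1108 and 894 tags.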

How the data were processed

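Uteri of 3 females per group were pooled at G2.5, and 1 DGE library per group was sequenced. The deposited counts are the clean tags that the authors assigned to each gene without normalization, after removal of adaptor-only tags, low quality tags and tags seen once, and alignment to mm9 reference transcripts. CASAVA is listed in the submitters' processing notes. The aligner and the tag enzyme are not given in the sources used here, nor is whether the counts per gene keep strand, and the sample descriptions mention mRNA fragmentation where the paper describes tag profiling. The deposited TPM is the copy number scaled by the authors to the clean tags of each library, with 0.01 at a count of 0. The ratio, log2 ratio, P-value and FDR columns hold the authors' own comparison and were not used.

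Library sizes were taken as the whole numbers that give every rounded TPM. A ratio is tags per clean tag in Dox− over Dox+, with an exact Clopper-Pearson interval at 95%. The filter of 200 combined copies and the log2 ratio of 0.5 follow the study's methods. Intervals cover counting error only and take each tag as independent. PCR copies of a tag are not independent molecules, so the intervals may be too narrow even for that error. No test between conditions could be made with single libraries. Levels carry exact Poisson intervals.

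The text names all 10 genes, the pair with the most copies in each list, up to 4 more past the size rule with the largest log2 ratio, and the 5 genes nearest to Vegfa. The 10 genes and the lists were chosen with earlier results of these data known. Alternatives were other filters, folds and scalings, a pseudocount of 1, tests of the 2 libraries' tags, and assumed coefficients of variation. Marker sums without Sox17 or Des were added after seeing the data. Methods were tested on simulated data. The tools were edgeR 4.0.16 in R 4.3.3 for the scaling factors, and scipy 1.17.1 (intervals), pandas 2.3.3, numpy 2.4.6 and, for plots, matplotlib 3.10.9 in Python 3.11.15. The qPCR measurements were not analysed here. A housekeeping gene of the lists is not reported here.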

Additional observations from a re-analysis of the deposited data

How the results depend on the processing

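The ratios of the 10 genes kept their sign and stayed within their main intervals under 3 other scalings and a pseudocount of 1. The sum of counted tags moved every log2 ratio by 0.04, TMM by −0.02 and median ratio size factors by −0.03. The log2 ratio of the ligand sum was −0.82, and −0.75 without Vegfa. The number of the 10 genes past the fold was 1 in the main setting, 3 with a filter of 100 combined copies (Vegfa, Vegfc and Figf), 4 with no filter (Kdr in addition) and 0 at 2-fold. It was 1 at 1.5-fold, under the 3 scalings, and with an FDR below 0.05 added by the Audic-Claverie or by Fisher's exact test, both of which compare the libraries and not the conditions. Intervals that left out 1 numbered 4 with counting error alone. With an assumed coefficient of variation between pools of 0.1 the number was 3 (Vegfa, Vegfc and Figf). The interval of Nrp1 then held 1 (0.919 to 1.72). The number was 2 with 0.2 (Vegfa and Vegfc) and 1 with 0.4 (Vegfc). With a filter of 100 in place of 200, genes past the fold numbered 5 in place of 0 for VEGF-induced endothelial genes, 8 in place of 5 for VEGF binding and restraint, 8 in place of 5 for endothelium, 3 in place of 0 for lymphatic and also for leukocyte markers, and 2 in place of 0 for blood. Over all genes the share past the fold was 39.0% at 100 and 36.6% at 200. Under the 3 scalings, added after seeing the data, smooth muscle gave 4 in place of 6 with the sum of counted tags, and the other lists moved by at most 2 genes. No paired analysis was possible because each condition has 1 library, and for the same reason no replicate could be left out. Depth limits the genes with few tags, of which Kdr has 10 and 17.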

Other observations

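Some genes of the hypoxia and VEGF response lists under 200 combined tags, chosen after their values were seen, had large ratios. Arnt2, a partner of hypoxia-inducible factors, had 9 tags in Dox+ and 64 in Dox−, 7.28-fold higher (3.61 to 16.6). Ankrd37, a hypoxia-inducible gene, had 21 and 76 tags, 3.71-fold higher (2.26 to 6.33). Hif3a, which encodes a hypoxia-inducible factor subunit, had 58 and 16 tags, a ratio of 0.283 (0.152 to 0.498). Apln, an endothelial tip cell gene, had 92 and 32 tags, a ratio of 0.356 (0.230 to 0.538), and Angpt2, which encodes the TEK ligand angiopoietin 2, had 41 and 14, a ratio of 0.350 (0.176 to 0.655). Dll4, the Notch ligand gene of tip cells, lay on the other side with 25 and 50 tags, a ratio of 2.05 (1.24 to 3.46). Of the 13 VEGF-induced endothelial genes in the table, 4 had intervals above 1, 4 below it and 5 that held it. Over all genes 24.6% had intervals above 1 and 23.0% below it. The 4 above were Dll4, Esm1, Cxcr4 and Unc5b, and the 4 below were Apln, Angpt2, Kcne3 and Aplnr.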
